A study of Mus musculus with 6 samples.

Results

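The genes described here encode the enzymes that build triglyceride from glycerol 3-phosphate, namely acyltransferases and lipins. They were chosen by gene symbol, step by step along the route, as *Gpam*, *Gpat3*, *Gpat4*, *Agpat1*, *Agpat2*, *Agpat3*, *Lpin1*, *Lpin3*, *Dgat1* and *Dgat2*. They are 10 of the 36144 gene symbols in the deposited table, and all 10 were among the 16069 genes with enough counts to be tested. The data are bulk poly-A RNA-seq of whole inguinal white adipose tissue (iWAT) from 3 Cebpa_fl/fl mice and 3 Cebpa_ASKO mice. The mice were 10-week-old females on a C57BL6/J background, fed chow ad libitum. All 6 mice carried floxed *Cebpa* alleles. The Cebpa_fl/fl controls lacked Cre, and the Cebpa_ASKO mice also carried the AdipoQ-Cre transgene. AdipoQ-Cre acts in cells that express adiponectin, so cells of the depot that do not express it should keep *Cebpa*. The paper's discussion describes progenitors that express *Adipoq* before they form lipid droplets. Which cells had lost *Cebpa* was not measured in these whole-tissue libraries. Both inguinal depots of a mouse were extracted together after the lymph nodes had been removed, and each mouse gave 1 library.

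Fat cells store fatty acids as triglyceride, which they assemble mostly at the endoplasmic reticulum. A glycerol 3-phosphate acyltransferase (GPAT) adds the first fatty acid, an acylglycerol phosphate acyltransferase (AGPAT) adds the next to make phosphatidic acid, a lipin removes the phosphate to give diacylglycerol, and a diacylglycerol acyltransferase (DGAT) adds the last. Each step has several enzymes, and the same intermediates also feed the phospholipids of cell membranes. *Agpat2* and *Lpin1* are known for lipodystrophy, a lack of fat tissue, when they are lost.

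The libraries held between 33141769 and 49477671 estimated counts, with the 3 Cebpa_ASKO libraries below the 3 controls, and the labels put all 6 in the same batch. *Cebpa* itself was at 204, 238 and 243 TPM (a share of the library corrected for transcript length) in Cebpa_fl/fl and at 17.3, 23.9 and 20.1 TPM in Cebpa_ASKO. Marker genes of several cell types moved with genotype. A list of 10 white adipocyte markers summed to between 28429 and 37691 TPM in controls and between 11730 and 13244 TPM in Cebpa_ASKO, with 6 of the 10 called lower. A list of 12 skeletal muscle markers summed to between 520 and 862 TPM in controls and between 1908 and 5218 TPM in Cebpa_ASKO, highest in Cebpa_ASKO 2, with 11 of the 12 called higher. A list of 8 mammary epithelium markers summed to between 489 and 997 TPM in controls and between 1372 and 1517 TPM in Cebpa_ASKO, with 0 of the 7 tested called. Lymphocyte markers summed to 178 TPM in Cebpa_fl/fl 1 and to between 2.05 and 6.29 TPM in the other 5 libraries. Hepatocyte markers were low throughout, at 22.9 TPM or less in sum, with *Cyp3a11* listed at 0 in all 6 libraries, and their sum was lower in each Cebpa_ASKO library than in each control. The summed markers of macrophages, endothelial cells, fibroblasts and progenitors, and brown adipocytes overlapped between genotypes, and none of their genes was called. Single genes still stood apart. Of the brown adipocyte markers, *Cidea* had means of 164 TPM in controls and 692 TPM in Cebpa_ASKO, and *Elovl3* 6.39 and 0.490 TPM, each without overlap, while *Ucp1* and *Cox8b* overlapped. Of the endothelial markers, *Pecam1* and *Cdh5* were lower without overlap in counts scaled by library, while *Kdr* and *Tek* overlapped. The part of these markers in the results below was not tested.

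The promoters of *Gpat3* and *Gpam* are shown because these enzymes share the GPAT step and both stood lower in every Cebpa_ASKO library, and because the factor that was deleted binds DNA. Each runs 5′ to 3′ on the gene's strand, from 250 bases before to 50 bases after a start in RefSeq (GRCm38.p6). Capitals mark matches to the C/EBP letters TTGCNNAA or to CCAAT, searched on both strands.
*Gpat3*, chr5:100845979-100846278, plus strand: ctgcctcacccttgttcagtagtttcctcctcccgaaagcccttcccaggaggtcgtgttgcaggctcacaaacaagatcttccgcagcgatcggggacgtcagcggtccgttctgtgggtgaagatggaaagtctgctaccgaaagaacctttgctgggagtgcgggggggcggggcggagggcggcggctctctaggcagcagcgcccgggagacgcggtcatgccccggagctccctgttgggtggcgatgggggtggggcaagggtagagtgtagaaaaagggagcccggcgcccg
*Gpam*, chr19:55127189-55127488, minus strand: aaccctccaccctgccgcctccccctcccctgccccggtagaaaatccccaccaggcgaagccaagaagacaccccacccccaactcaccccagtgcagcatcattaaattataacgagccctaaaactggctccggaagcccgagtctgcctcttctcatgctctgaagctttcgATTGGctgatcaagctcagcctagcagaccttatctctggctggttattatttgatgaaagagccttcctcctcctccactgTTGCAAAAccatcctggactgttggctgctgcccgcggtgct
The *Gpam* window held 1 match to the C/EBP letters, whose first base was base 9 of the transcribed side, and 1 match to CCAAT on the opposite strand, whose leftmost printed base lay at -74 from the start. The *Gpat3* window held no match to either, which says only that these letters are not in these 300 bases. Its GC content was 64.3%. The table held another promoter of *Gpam*, at chr19:55099428-55099727, with no match to either and a GC content of 68%, while that of the window shown was 55.7%. Among 32851 promoters of the same length, 10.8% held the C/EBP letters and 37.4% held CCAAT. The table gave 10 promoters for 7 of the 10 genes, all but *Gpat4*, *Dgat1* and *Dgat2*. Of these promoters 2 held the C/EBP letters, the one of *Gpam* above and one of *Agpat3*, and 2 held CCAAT, the same one of *Gpam* and one of *Agpat1*. These matches are a description of sequence, since binding was not measured in these libraries.

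In Cebpa_ASKO iWAT, 3 of the 10 genes fell and 0 rose. They were *Gpat3*, an enzyme of the first step, and *Dgat1* and *Dgat2*, which are both enzymes of the last step. A gene was called when its adjusted p was below 0.05 in edgeR's quasi-likelihood test on summed counts, with Benjamini-Hochberg adjustment over all 16069 genes. Among all of these, 3.84% were called lower and 1.39% were called higher. Before adjustment 6 of the 10 had a p below 0.05, the 3 named and *Gpam*, *Gpat4* and *Agpat1*, all fitted lower. The fitted log2 fold changes (Cebpa_ASKO over Cebpa_fl/fl) ran from -3.61 to 0.54 with a median of -0.38, against a median of 0.025 over all genes tested. In CPM (a share of the library's counts, scaled by the TMM method), 6 of the 10 were lower in each Cebpa_ASKO library than in each control, and 0 were higher in this way, where 13.2% and 12.9% of all tested genes were. Because the RNA came from whole tissue, fewer adipocytes and less RNA of a gene in each adipocyte cannot be told apart.

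**Figure D1:**
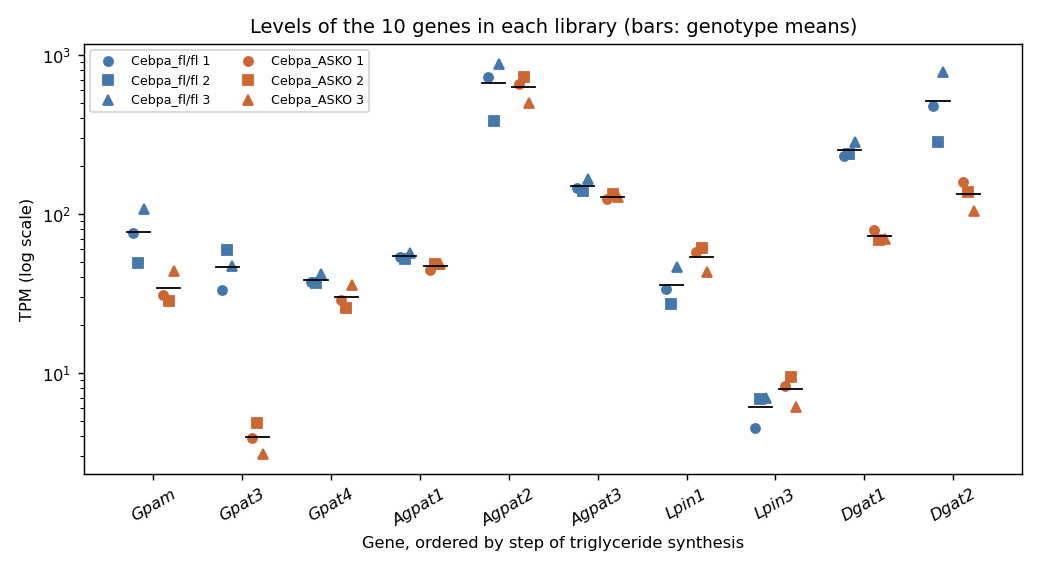
TPM on a log axis of the 10 genes in each library, with symbols for the 3 Cebpa_fl/fl mice (blue) and the 3 Cebpa_ASKO mice (orange) and black bars at the genotype means. *Gpat3* falls from a mean of 46.6 to 3.95 TPM and both *Dgat* genes stand apart by genotype, while *Agpat2*, *Lpin1* and *Lpin3* overlap.

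The GPAT step opens the route. *Gpat3* (chr5:100845713-100899102) encodes the acyltransferase of the endoplasmic reticulum that is abundant in differentiated fat cells. It was at 33.3, 59.2 and 47.2 TPM in the Cebpa_fl/fl libraries and at 3.91, 4.87 and 3.07 TPM in the Cebpa_ASKO libraries. The lowest control was several times the highest Cebpa_ASKO library, and the spread within each genotype was small beside that gap. The Cebpa_ASKO mean was 8.48% of the control mean, and the values rested on between 263 and 6053 counts. *Gpat3* fell by 3.61 on the log2 scale of the count fit (standard error 0.273, adjusted p = 0.00113 by edgeR). It was called in all 17 ways of processing the data, with log2 fold changes from -3.77 to -3.24.

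*Gpam* (chr19:55067268-55127238) encodes the GPAT of the mitochondrial outer membrane, a gene known to follow insulin and feeding. Its levels were 75.6, 49.0 and 107 TPM in Cebpa_fl/fl and 30.7, 28.5 and 43.9 TPM in Cebpa_ASKO. All 3 Cebpa_ASKO libraries lay below all 3 controls, but the controls themselves spread more than 2-fold, from Cebpa_fl/fl 2 to Cebpa_fl/fl 3. The log2 fold change was -1.23 (95% confidence interval -1.96 to -0.50) and was not called (edgeR, adjusted p = 0.0760). It was called in 3 of the 17 settings, and without Cebpa_fl/fl 2 the log2 fold change was -1.50 with an adjusted p of 0.0136 by edgeR.

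*Gpat4* (chr8:23171265-23208346) encodes the closest relative of the *Gpat3* enzyme, in the same membrane. It was at 37.2, 36.6 and 41.9 TPM in Cebpa_fl/fl and at 28.7, 25.5 and 35.7 TPM in Cebpa_ASKO. Each Cebpa_ASKO library was below each control, by a margin that was narrow for Cebpa_ASKO 3. The log2 fold change was -0.50 (95% confidence interval -0.84 to -0.17) and was not called (edgeR, adjusted p = 0.106). DESeq2 was the only one of the 17 settings that called it. The ratio of *Gpat3* to *Gpat4* TPM was 0.896, 1.62 and 1.13 in controls and 0.136, 0.191 and 0.0859 in Cebpa_ASKO. The pair was thus of similar level in control iWAT, and *Gpat4* was well above *Gpat3* in each Cebpa_ASKO library.

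**Figure D2:**
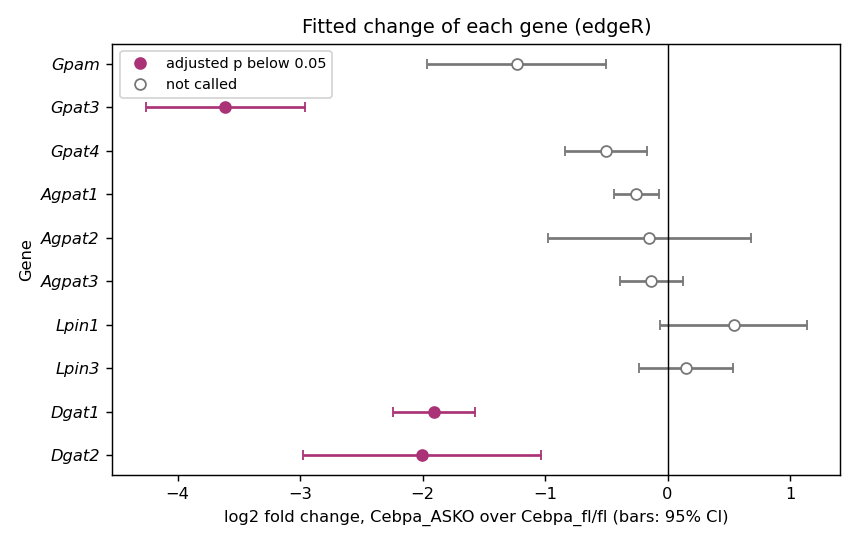
Log2 fold change of each gene in Cebpa_ASKO over Cebpa_fl/fl iWAT from the edgeR fit (x axis), with 95% confidence intervals from 3 libraries per genotype as bars and filled points for called genes. *Gpat3* lies at -3.61, *Dgat1* at -1.91 and *Dgat2* at -2.01, and the intervals of *Agpat2*, *Agpat3*, *Lpin1* and *Lpin3* span 0.

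No AGPAT gene was called. With all transcripts counted, coding or not, *Agpat2* (chr2:26593057-26604417), which encodes the main AGPAT of adipose tissue, had the highest mean TPM of the 10 genes in both genotypes. Its levels were 727, 382 and 883 TPM in Cebpa_fl/fl and 657, 727 and 497 TPM in Cebpa_ASKO. The genotypes overlapped, and the lowest library of all was the control Cebpa_fl/fl 2. The log2 fold change was -0.15 with a 95% confidence interval from -0.98 to 0.68 (edgeR, adjusted p = 0.874). Changes in either direction within that interval thus remain possible.

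*Agpat1* (chr17:34604262-34613449) and *Agpat3* (chr10:78269178-78352489) encode widely expressed AGPATs and were among the steadiest of the 10 genes. *Agpat1* was at 53.2, 51.9 and 57.0 TPM in Cebpa_fl/fl and at 44.7, 48.4 and 48.8 TPM in Cebpa_ASKO. Every Cebpa_ASKO library was below every control, and the coefficient of variation within a genotype was 4.88% or less in TPM. The log2 fold change of *Agpat1* was -0.25 (95% confidence interval -0.44 to -0.07) and was not called (edgeR, adjusted p = 0.130). *Agpat3* was at 146, 140 and 166 TPM in Cebpa_fl/fl and at 124, 134 and 128 TPM in Cebpa_ASKO. The genotypes of *Agpat3* were apart in TPM and overlapped in CPM, and the log2 fold change was -0.13 (95% confidence interval -0.39 to 0.12, edgeR, adjusted p = 0.571).

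The lipins were the only genes of the 10 with a fitted difference above 0. *Lpin1* (chr12:16535669-16610966) encodes the main lipin of adipose tissue, a phosphatase of phosphatidic acid that is also known as a regulator of transcription. Its levels were 33.8, 27.2 and 46.7 TPM in Cebpa_fl/fl and 57.4, 61.4 and 42.8 TPM in Cebpa_ASKO. Cebpa_ASKO 1 and Cebpa_ASKO 2 were above all controls, while Cebpa_ASKO 3 lay within the control range. The log2 fold change of 0.54 (95% confidence interval -0.06 to 1.14) was not called (edgeR, adjusted p = 0.300), nor was it in any of the 17 settings, where it ran from 0.34 to 0.75. The ratio of *Lpin1* to *Dgat2* TPM was 0.0705, 0.0959 and 0.0596 in controls and 0.364, 0.446 and 0.411 in Cebpa_ASKO, without overlap. In this ratio *Dgat2* itself was lower in every Cebpa_ASKO library, while *Lpin1* alone overlapped between genotypes.

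*Lpin3* (chr2:160880670-160906002) encodes a lipin that is low in fat. It had the lowest TPM of the 10 genes in controls, at 4.50, 6.84 and 6.95 TPM, and was at 8.29, 9.43 and 6.07 TPM in Cebpa_ASKO. The genotypes overlapped, and the log2 fold change was 0.15 (95% confidence interval -0.24 to 0.53, edgeR, adjusted p = 0.694). With between 387 and 583 counts per library it was the least deeply counted of the 10 genes in controls.

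Both DGAT genes fell. *Dgat1* (chr15:76502015-76511953) encodes a membrane enzyme of the endoplasmic reticulum that is known to protect adipocytes by esterifying again the fatty acids released by lipolysis. It was at 232, 239 and 282 TPM in Cebpa_fl/fl and at 79.0, 68.6 and 69.6 TPM in Cebpa_ASKO. The genotypes were far apart, and the coefficient of variation was 10.7% in controls and 7.94% in Cebpa_ASKO. The Cebpa_ASKO mean was 28.8% of the control mean. *Dgat1* fell by 1.91 on the log2 scale of the count fit (standard error 0.139, adjusted p = 0.000973 by edgeR) and was called in all 17 settings, with log2 fold changes from -2.02 to -1.78.

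*Dgat2* (chr7:99153658-99182719) encodes an enzyme of another protein family that works at the endoplasmic reticulum and lipid droplets and is known for esterifying newly made fatty acids. It was at 479, 283 and 783 TPM in Cebpa_fl/fl and at 158, 138 and 104 TPM in Cebpa_ASKO. All Cebpa_ASKO libraries were below all controls, and among the 10 genes *Dgat2* had the widest relative spread in controls, with a coefficient of variation of 48.9%. The Cebpa_ASKO mean was 25.9% of control, and *Dgat2* fell by 2.01 on the log2 scale of the count fit (standard error 0.408, adjusted p = 0.0418 by edgeR). The call depended on single libraries. It held in 10 of the 17 settings and was lost when any library other than Cebpa_fl/fl 2 was left out, with adjusted p from 0.0814 to 0.159, while without Cebpa_fl/fl 2 the adjusted p was 0.00967. The log2 fold change stayed between -2.33 and -1.59 in all 17 settings. The count of called genes among the 10 was therefore 2, *Gpat3* and *Dgat1*, without Cebpa_fl/fl 1 with its lymphocyte markers, and also 2 without Cebpa_ASKO 2 with its muscle markers. Without Cebpa_fl/fl 2, the control highest in macrophage and fibroblast markers, it was 4, with *Gpam* and *Dgat2* added.

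The control libraries shared an order for most of the genes. Cebpa_fl/fl 2 was the lowest of the 3 controls in 7 of the 10 genes in TPM, and Cebpa_fl/fl 3 was the highest in 9 of the 10. *Gpat3* went the other way and was highest in Cebpa_fl/fl 2. The 10 genes together summed to 1822, 1275 and 2421 TPM in controls and to 1192, 1245 and 979 TPM in Cebpa_ASKO. Every Cebpa_ASKO sum was below every control sum, but Cebpa_fl/fl 2 was only slightly above Cebpa_ASKO 2.

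The order of levels in TPM, which is per length and here counts all transcripts of a gene, changed at the level of single genes. In controls it ran *Agpat2* (mean 664 TPM), *Dgat2* (515), *Dgat1* (251), *Agpat3* (151), *Gpam* (77.2), *Agpat1* (54.0), *Gpat3* (46.6), *Gpat4* (38.6), *Lpin1* (35.9) and *Lpin3* (6.10). The ranges of *Agpat2* and *Dgat2* overlapped, as did those of each neighbouring pair from *Gpam* to *Lpin1*. In Cebpa_ASKO it ran *Agpat2* (627), *Dgat2* (133), *Agpat3* (129), *Dgat1* (72.4), *Lpin1* (53.9), *Agpat1* (47.3), *Gpam* (34.4), *Gpat4* (29.98), *Lpin3* (7.93) and *Gpat3* (3.95). Here the pairs of *Dgat2* with *Agpat3*, *Lpin1* with *Agpat1* and *Gpam* with *Gpat4* overlapped. *Gpat3* was seventh in controls and last in Cebpa_ASKO, below *Lpin3* in every Cebpa_ASKO library.

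To describe each step as a whole, the TPM of all its enzymes were summed, with *Gpat2*, *Agpat4*, *Agpat5* and *Lpin2* added to the 10 genes. The sums and the shares below count all transcripts of a gene, including forms annotated without a coding frame. None of the 3 added genes that could be tested was called. *Agpat4*, *Agpat5* and *Lpin2* had log2 fold changes of 0.17, -0.12 and 0.47, with adjusted p of 0.751, 0.659 and 0.425 by edgeR, and *Gpat2* was too low to test at 0.119 TPM or less. Among the 4 steps the first and the last were lower in Cebpa_ASKO without overlap. The GPAT step summed to 146, 145 and 196 TPM in Cebpa_fl/fl and to 63.4, 58.9 and 82.7 TPM in Cebpa_ASKO, or 42.1% of control by the means. The DGAT step summed to 711, 522 and 1065 TPM in Cebpa_fl/fl and to 237, 206 and 174 TPM in Cebpa_ASKO, or 26.8% of control. For both, the exact two-sided permutation test gave p = 0.1, the smallest that 3 against 3 libraries allow, and p = 0.2 when adjusted over the 4 steps.

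The middle steps overlapped between genotypes. The AGPAT step was at 886 ± 270 TPM in Cebpa_fl/fl and 821 ± 118 TPM in Cebpa_ASKO (SD, n = 3 each, exact two-sided permutation test, p = 0.8). The lipin step was at 55.6 ± 15.2 TPM in Cebpa_fl/fl and 81.8 ± 16.5 TPM in Cebpa_ASKO (SD, n = 3 each, exact two-sided permutation test, p = 0.2, adjusted p = 0.267).

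Within the GPAT step the makeup differed. *Gpat3* carried 22.8%, 40.9% and 24.1% of the summed GPAT TPM in Cebpa_fl/fl and 6.17%, 8.27% and 3.71% in Cebpa_ASKO. The means differed by -23.2 percentage points without overlap (exact two-sided permutation test, p = 0.1, adjusted p = 0.4 over 4 shares). In CPM, which is not per length, the difference was -14.2 percentage points. The share of *Gpat4* went from 24.0% ± 2.29 to 43.9% ± 1.21 (SD, n = 3 each), also without overlap, and that of *Gpam* was 46.7% ± 11.2 in controls and 49.95% ± 2.67 in Cebpa_ASKO. Shares of the same sum depend on each other, and the TPM of *Gpat4* itself went down, from a mean of 38.6 to 29.98. In the DGAT step, where both genes fell, *Dgat1* carried 35.0% ± 9.87 of the TPM in controls and 35.6% ± 3.91 in Cebpa_ASKO (SD, n = 3 each, exact two-sided permutation test, p = 0.8). The difference of 0.564 percentage points turned with the control libraries, to 5.98 without Cebpa_fl/fl 2, where the genotypes no longer overlapped (exact permutation, p = 0.1, the least that 2 against 3 can give), and to -3.69 without Cebpa_fl/fl 3. In controls the main coding form of *Dgat1* averaged 139 TPM, against 509 TPM for that of *Dgat2*, so the share of *Dgat1* is smaller in coding RNA. *Agpat2* carried 73.4% ± 7.74 and 76.0% ± 3.82 of the AGPAT step, and *Lpin1* carried 64.5% ± 0.788 and 66.05% ± 3.73 of the lipin step, in Cebpa_fl/fl and Cebpa_ASKO (SD, n = 3 each, exact two-sided permutation test, p = 0.7 for both). A form of *Agpat2* without a coding frame made up a mean of 290 TPM of the AGPAT step in controls and 275 TPM in Cebpa_ASKO.

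**Figure D3:**
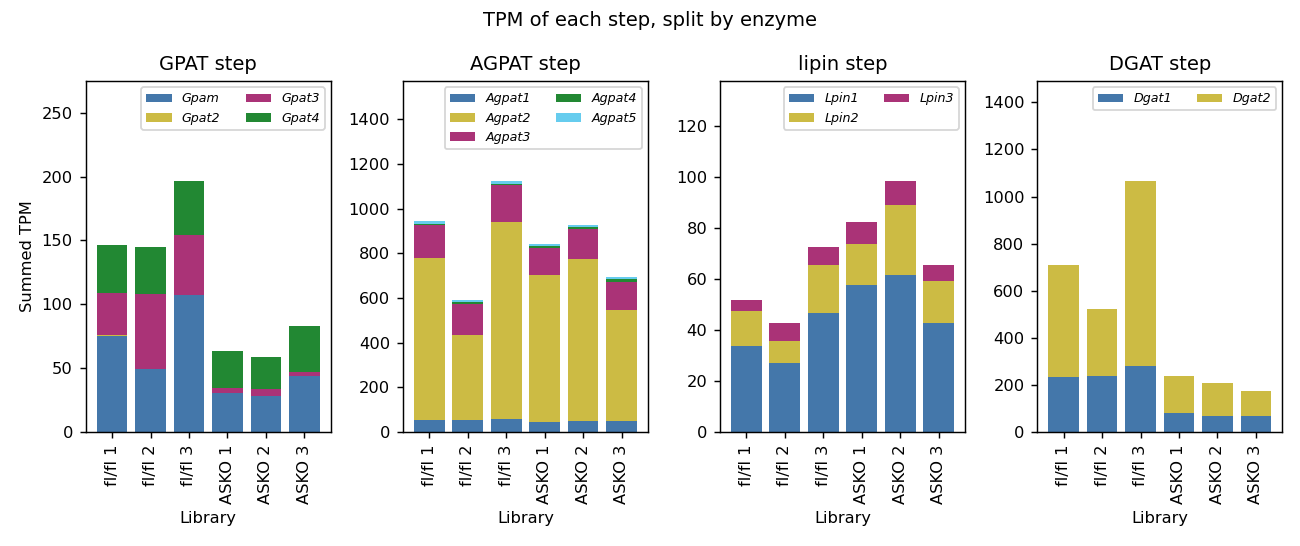
Summed TPM of each step (y axis, from 0, on a scale of its own for each step) in each library, split by enzyme. The GPAT bars shrink from between 145 and 196 TPM to between 58.9 and 82.7 TPM with little *Gpat3* left in Cebpa_ASKO, the DGAT bars shrink from between 522 and 1065 TPM to between 174 and 237 TPM, and the AGPAT and lipin bars overlap between genotypes.

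The deposited transcript estimates show which forms carried each gene. They are described without a test, since kallisto, the program used, divides reads among transcripts that share sequence. *Gpat3* came from a pair of protein-coding transcripts. Gpat3-201, which starts at base 100846219 of chromosome 5 inside the promoter window printed above, was at 26.4, 48.6 and 33.7 TPM in Cebpa_fl/fl and at 1.33, 2.83 and 2.04 TPM in Cebpa_ASKO. Gpat3-202, which starts downstream of that window at base 100846364, was at 6.38, 9.36 and 12.6 TPM in Cebpa_fl/fl and at 2.59, 1.87 and 0.756 TPM in Cebpa_ASKO. Both forms were lower in all Cebpa_ASKO libraries than in all controls, and the share of Gpat3-201 was 77.6% ± 5.54 of the gene in controls and 52.8% ± 16.9 in Cebpa_ASKO (SD, n = 3 each).

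For *Dgat1*, 9 of the 12 annotated transcripts reached a mean of 1 TPM over the 6 libraries. The protein-coding Dgat1-201 was at 127, 133 and 158 TPM in Cebpa_fl/fl and at 36.2, 39.8 and 33.8 TPM in Cebpa_ASKO, and Dgat1-205, annotated as retaining an intron, was at 51.5, 47.2 and 56.8 TPM and at 20.7, 13.4 and 17.3 TPM. The coding and the intron-retaining form were thus both lower in every Cebpa_ASKO library. *Dgat2* and *Gpam* were each carried almost wholly by 1 protein-coding form, with 98.9% ± 0.230 of the control TPM in Dgat2-201 and 97.5% ± 0.983 in Gpam-202 (SD, n = 3 each).

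For *Lpin1*, the form Lpin1-202 was at 26.1, 21.4 and 35.7 TPM in Cebpa_fl/fl and at 50.7, 50.4 and 35.0 TPM in Cebpa_ASKO. Lpin1-201 was at 6.18, 4.29 and 7.56 TPM and at 4.80, 6.81 and 5.95 TPM. Only the former had libraries above the control range. *Agpat2* was divided between the coding Agpat2-201, at 52.6% ± 3.81 of the gene in controls and 53.6% ± 2.34 in Cebpa_ASKO (SD, n = 3 each), and Agpat2-202, annotated as a processed transcript with no coding frame, which took most of the rest. A part of the *Agpat2* TPM thus belonged to a form without a coding frame in both genotypes. In Cebpa_fl/fl, Agpat2-201 was at 379, 187 and 499 TPM, below Dgat2-201 at 474, 281 and 772 TPM in each library. The first place of *Agpat2* in controls thus rests on counting both forms. In Cebpa_ASKO, Agpat2-201 stood above Dgat2-201, with means of 335 and 131 TPM.

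**Figure D4:**
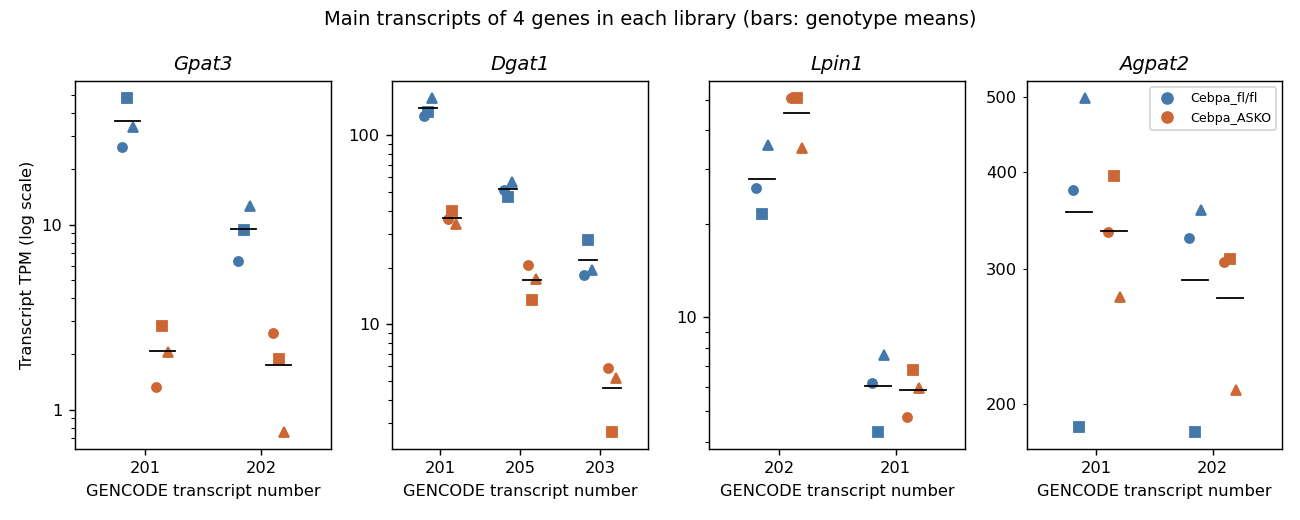
TPM on log axes of the main transcripts of *Gpat3*, *Dgat1*, *Lpin1* and *Agpat2*, named by their GENCODE number, in each library (symbol shapes for mice 1 to 3 of a genotype, blue for Cebpa_fl/fl, orange for Cebpa_ASKO, black bars for means). Both forms of *Gpat3* and the 3 forms of *Dgat1* shown are lower in Cebpa_ASKO, and both forms of *Agpat2* overlap.

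To place the 2 genes called in every setting, the genes nearest in pattern were listed by the Euclidean distance between log2(CPM + 0.5) values centred on each gene's mean, over the 6 libraries and among 10446 candidate genes. The 5 nearest to *Gpat3* were *Serpina3c* (distance 0.590), *Cebpa* itself (0.647), *Hp* (0.740), *Trf* (0.779) and *Ffar2* (0.802). *Serpina3c* was at 35.9, 65.6 and 46.2 TPM in controls and at 4.92, 5.53 and 4.86 TPM in Cebpa_ASKO, which is also highest in Cebpa_fl/fl 2. The 5 nearest to *Dgat1* were *Bche* (0.264), *Acp5* (0.268), *Amy1* (0.290), *Pex16* (0.328) and *N4bp2l1* (0.355). All 10 were called lower, which the choice by likeness to a called gene brings with it.

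Around the route, 48 other genes of glycerolipid metabolism were listed by role, and 9 of them were called lower and 1 higher, with a median log2 fold change of -0.10. In the side routes that make or remodel acylglycerols and lysophospholipids, 3 of 10 were called, all lower. *Mogat1*, a monoacylglycerol acyltransferase gene that feeds diacylglycerol to the DGAT step, was at 18.3, 21.4 and 24.2 TPM in controls and at 6.77, 8.40 and 6.81 TPM in Cebpa_ASKO (log2 fold change -1.60, edgeR, adjusted p = 0.00482). *Mogat2*, its relative, was low, at 1.10, 0.827 and 2.35 TPM and at 0.155, 0.377 and 0.147 TPM (log2 fold change -2.83, adjusted p = 0.0349 by edgeR). *Lpgat1*, a lysophospholipid acyltransferase gene, was at 35.2, 44.2 and 34.8 TPM and at 11.7, 14.3 and 15.99 TPM (log2 fold change -1.51, adjusted p = 0.000698 by edgeR). None of these 3 overlapped between genotypes.

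Among 5 genes of glycerol 3-phosphate supply, 2 were called lower. *Pck1*, which encodes the cytosolic phosphoenolpyruvate carboxykinase that adipocytes use to make glycerol 3-phosphate from smaller molecules, fell from 1129, 902 and 1110 TPM to 362, 263 and 371 TPM (log2 fold change -1.72, edgeR, adjusted p = 0.00918). *Gpd1l* had a log2 fold change of -0.38 (edgeR, adjusted p = 0.0397). *Gpd1*, which makes glycerol 3-phosphate from a product of glycolysis, was at 820, 310 and 740 TPM in controls and at 1222, 1298 and 948 TPM in Cebpa_ASKO. The genotypes of *Gpd1* were apart in TPM and overlapped in CPM, and its log2 fold change of 0.82 was not called (95% confidence interval -0.15 to 1.79, edgeR, adjusted p = 0.331).

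Of 5 partner genes of the route, 2 were called lower. *Bscl2*, which encodes seipin, a protein of the sites where lipid droplets form, was at 214, 231 and 272 TPM in controls and at 67.2, 68.0 and 84.1 TPM in Cebpa_ASKO, a log2 fold change of -1.73 (edgeR, adjusted p = 0.000973). *Fitm2*, which also acts in lipid droplet formation, was at 41.0, 44.9 and 49.1 TPM and at 28.7, 28.6 and 27.8 TPM, a log2 fold change of -0.72 (edgeR, adjusted p = 0.0136). Both genes were apart between genotypes in all libraries.

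Of the 18 genes of the phospholipid branch, 1 was called lower and 1 higher. *Selenoi*, which makes phosphatidylethanolamine from diacylglycerol, had a log2 fold change of -0.55 (edgeR, adjusted p = 0.0332). *Cds1*, which turns phosphatidic acid toward phosphatidylinositol and cardiolipin, rose by 0.60 on the log2 scale (edgeR, adjusted p = 0.0483), from 3.79, 3.59 and 5.04 TPM to 6.52, 8.35 and 6.75 TPM. *Chpt1*, a choline phosphotransferase gene, and *Crls1*, the cardiolipin synthase gene, had log2 fold changes of -0.78 and 0.59 and were not called (edgeR, adjusted p = 0.0787 and 0.123). Of 10 phosphatases and kinases that act on phosphatidic acid and diacylglycerol, 1 was called. It was the diacylglycerol kinase gene *Dgkd*, with a log2 fold change of -0.80 (edgeR, adjusted p = 0.00316), while *Plpp3*, the most abundant of them, was not called (log2 fold change 0.12, adjusted p = 0.879).

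**Figure D5:**
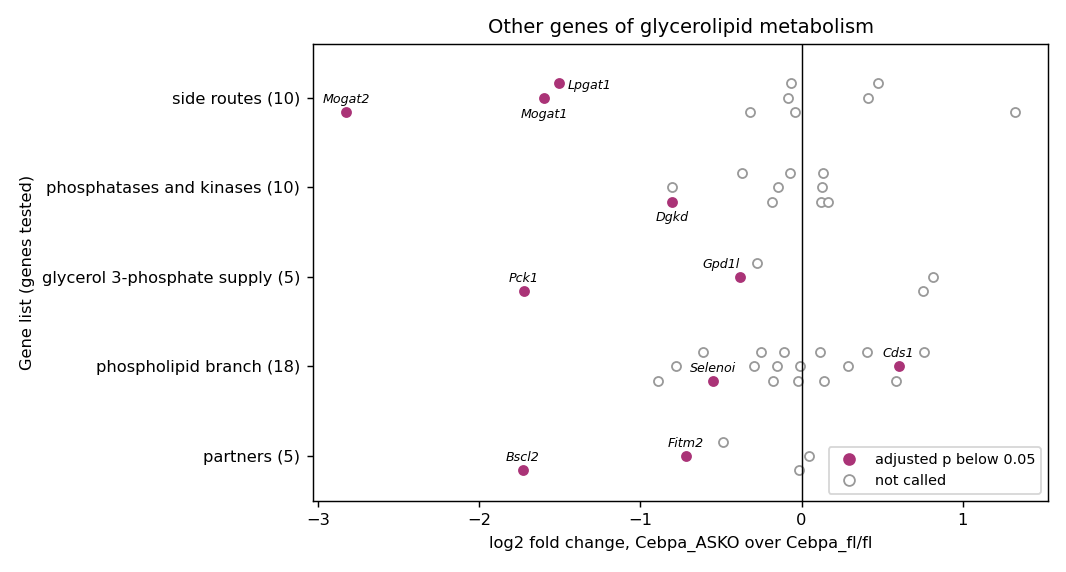
Log2 fold changes in Cebpa_ASKO over Cebpa_fl/fl iWAT (x axis) of the 48 other glycerolipid genes by list, with the number of genes tested in brackets and filled, named points for called genes. The 9 genes called lower are spread over all 5 lists, and *Cds1* is the single gene called higher.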

How the data were processed

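Whole iWAT of 3 Cebpa_fl/fl and 3 Cebpa_ASKO mice was sequenced, and groups follow the sample titles. For each library the authors deposited kallisto output, with an estimated count, a TPM and an effective length for every transcript. A table of TPM per gene symbol was deposited too. The submitters' processing notes list kallisto 0.44.0 and both the mouse build GRCm38.p6 and a human build, GRCh38.p12, without saying what each was used for. The transcript annotation and the use of strand are not given in the sources used here. Without strand, overlapping genes cannot be told apart, and reads shared by similar transcripts are divided by estimate.

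Transcripts were matched by identifier to GENCODE M21 (GRCm38), 116816 of 118489, holding 99.5% to 99.6% of the counts. The deposited estimated counts were added up by gene symbol, then rounded. For the 10 genes the summed TPM differed from the authors' gene TPM by 0%. The low-count filter of edgeR kept 16069 of 23368 genes, TMM factors lay between 0.956 and 1.06, and edgeR's quasi-likelihood test compared the genotypes with Benjamini-Hochberg adjustment. The study's methods name DESeq2, which was an alternative here. Each library came from 1 mouse and counted as 1 sample. Replicates differed beyond counting noise (chi-square over its degrees of freedom, 25.9 to 224). The p-values of edgeR set the difference between genotypes against the spread between mice. Step sums and shares were compared by exact permutation over 20 arrangements, with 0.1 as the smallest p.

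Named genes are the 10 genes, other enzymes of the steps, *Cebpa*, 5 genes nearest in pattern to *Gpat3* and to *Dgat1* (mean log2 CPM at least 3, no predicted or Rik symbols), and of 48 other glycerolipid genes all called ones and the 4 uncalled ones with the most TPM. The genes and lists were chosen with earlier results of these data known. Alternatives were DESeq2, its size factors, total counts, all genes with a count, at least 10 counts in every library, a length offset, limma on log2(TPM + 1) and log2(TPM + 0.1) for genes of at least 1 TPM in 3 libraries, limma unfiltered, a replicate block, and each library left out. A pseudocount understates changes of low genes. The test code was tested on simulated counts. Software was edgeR 4.0.16, DESeq2 1.42.0 and limma 3.58.1 in R 4.3.3, and pandas 2.3.3, numpy 2.4.6, scipy 1.17.1 and matplotlib 3.10.9 in Python 3.11.15. Promoters come from a RefSeq table. The effective length entered only the length offset.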

Additional observations from a re-analysis of the deposited data

How the results depend on the processing

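Over 17 settings, *Gpat3* and *Dgat1* were called in all, and no fitted direction of the 10 genes turned except that of *Agpat2*, which was -0.15 with all libraries, -0.46 without Cebpa_fl/fl 2, 0.095 without Cebpa_fl/fl 3 and 0.0086 without Cebpa_ASKO 3, and was never called. *Dgat2* also lost its call with limma unfiltered (adjusted p = 0.107) and with the replicate block (adjusted p = 0.135). *Gpam* was called with DESeq2 (adjusted p = 0.00109) and with the block (adjusted p = 0.0490), and *Gpat4* with DESeq2 (adjusted p = 0.0253), so that DESeq2 called 5 of the 10 genes lower. Over all genes, 840 calls became 1796 with DESeq2, 359 with limma unfiltered and 370 with the replicate block. Of the calls 26.5% were higher, against 37.0% with DESeq2, 20% with the replicate block and from 10.6% (without Cebpa_ASKO 1) to 30.9% (without Cebpa_ASKO 3) with a library left out. With a library left out, the calls ran from 311 (without Cebpa_ASKO 1) to 922 (without Cebpa_fl/fl 2), with 363 without Cebpa_ASKO 2, 502 without Cebpa_fl/fl 3, 508 without Cebpa_fl/fl 1 and 724 without Cebpa_ASKO 3, and between 2 and 4 of the 10 genes were called. A lone pair in 1 genotype was then tested with the spread pooled over both. The median of all genes stayed between -0.0020 and 0.089. In CPM the share of *Gpat3* in the GPAT step differed by -14.2 percentage points, in place of -23.2 in TPM. As a share of estimated counts the main coding form took 76.7% of *Dgat1* and 91.9% of *Gpat4* in controls, against 55.5% and 75.0% in TPM. TPM is per length, while CPM and counts are not. The cause of the shifts between settings was not tested. Replicate numbers are not stated to pair the mice, and the paper states only that the genotypes were bred as littermates. The deviations of same-numbered libraries correlated at 0.096, -0.0061 and -0.26. Those of differently numbered libraries correlated at -0.19 to 0.20, so these values cannot settle whether mice were paired. Each of the 10 genes had at least 263 counts in every library.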
